A study of Oryza sativa with 18 samples.

Results

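The genes described here encode enzymes that break down membrane phospholipids or build galactolipids, and they were taken from the deposited rice table by the words of their descriptions. The words were glycerophosphoryl diester, phospholipase C, phospholipase D, phosphoesterase family, MGD1, MGD2, monogalactosyldiacylglycerol, digalactosyldiacylglycerol, sulfoquinovos and SQD. They matched 52 of 55986 loci. Of these, 13 are described as glycerophosphoryl diester phosphodiesterases (GDPD), 5 as phosphoesterase family proteins, 10 as phospholipase C, 16 as phospholipase D, 3 as monogalactosyldiacylglycerol synthases (MGD) and 5 as digalactosyldiacylglycerol synthases (DGD). The words for sulfolipid synthesis, sulfoquinovos and SQD, matched 0 rows, so the 52 genes hold no sulfolipid enzyme. LOC_Os05g32140 and LOC_Os07g01030, which an earlier gene list for these data names SQD1 and SQD2, are described separately at the end.

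The study profiled flag leaves of rice (Oryza sativa) by RNA sequencing while the grain filled, in plants grown in a paddy field. Its 3 genotypes concern the phosphate exporter gene OsPHO1;2: wild type (WT), a mutant labelled Ospho1;2-Ko1 (here Ko1) and an overexpressor labelled OsPHO1;2-OE (here OE). Each was sampled at 5DAF and 15DAF (by the usual reading, days after flowering), with 3 libraries in each of the 6 groups, 18 in all. The labels name 1 mutant line and 1 overexpression line, so an effect of the gene and one of the line's background cannot be told apart. They do not say which promoter drives the overexpression, what the Ko1 mutation is, or whether each library stands for its own plant; the p-values measure the spread between libraries, which may be technical.

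Most of the phosphorus in a leaf membrane sits in phospholipids. Plants short of phosphate are known to hydrolyse these lipids, recover the phosphate, and replace them with galactolipids and sulfolipids, which carry none. Phospholipase D cuts off the head group and leaves phosphatidic acid, phospholipase C leaves diacylglycerol, and GDPD enzymes split glycerophosphodiesters, which remain after both acyl chains are removed, into glycerol-3-phosphate and an alcohol. MGD enzymes add galactose to diacylglycerol, and DGD enzymes add another galactose to that product, which makes digalactosyldiacylglycerol, a major lipid of the thylakoid membrane.

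The library totals lay between 13223554 and 18264909 counts. All 21 leaf marker genes (Rubisco small subunits and chlorophyll-binding proteins) had counts, with a summed level of 13400 to 52210 CPM (counts scaled to a fixed library size) per library, while 18 of 43 grain storage protein genes were at 0 everywhere and the 43 together reached 11.6 to 24.2 CPM. At 15DAF the grain sum was 15.7 to 18.9 CPM in Ko1, 12.1 to 12.9 in WT and 11.6 to 15.0 in OE, so Ko1 lay above both, and the leaf sum was 13400 to 34590 CPM in Ko1, 20650 to 25700 in WT and 18550 to 19540 in OE, with overlap. The part of these differences in the results below was not tested. OsPHO1;2 (LOC_Os02g56510) was low in the WT and Ko1 libraries and uneven between the OE libraries at 15DAF. At 15DAF it read 1.78, 2.58 and 3.25 CPM in WT, 6.10, 6.14 and 6.07 in Ko1, and between 4.75 and 29.5 in OE. At 5DAF it read 1.73, 3.53 and 2.25 CPM in WT, 3.38, 2.78 and 1.10 in Ko1, and 5.91, 8.90 and 9.74 in OE. The Ko1 libraries thus lay above WT at 15DAF and overlapped WT at 5DAF. Where the mutation lies is not given in the sources used here, so the transcript level does not check the Ko1 label. The library labelled WT 5DAF replicate 3 stood apart from its group: its profile over all genes correlated on average at 0.936 with its own group and at 0.960 with Ko1 at 5DAF. Counts that use WT at 5DAF are therefore given with and without it.

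Of the 52 genes, 6 had no count in any library, 7 had counts but fell below the filter on low counts (at most 82 counts over all libraries), and 39 were tested with edgeR's quasi-likelihood test. A gene is called here where the Benjamini-Hochberg adjusted p over all 20437 tested genes was under 0.05. Of the 39, 27 were called in at least 1 of 11 contrasts and 12 in none. The phosphoesterase family gene LOC_Os03g63580 reached the count minimum in 3 libraries only through Ko1 at 15DAF, so it had to be high there to be tested. The other 38 would have been tested without that group. Outside both Ko1 groups, 36 of the 39 reached that minimum. MGD2 (LOC_Os08g20420) and LOC_Os04g32320 reached it only with Ko1 libraries counted, so they too were tested because of their level in Ko1.

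In Ko1 at 15DAF, 18 of the 39 tested genes were higher than in WT and 0 were lower, against 6.53% of all tested genes called higher and 4.43% called lower. Both the 18 and the 39 include LOC_Os03g63580, MGD2 and LOC_Os04g32320, which were tested because of their level in Ko1. Their presence favours the count of genes called higher. The genes called were 5 of 10 tested GDPD genes, 2 of 3 phosphoesterase family genes, 2 of 8 phospholipase C genes, 4 of 10 phospholipase D genes, 2 of 3 MGD genes and 3 of 5 DGD genes. The median log2 fold change over the 39 was 0.95, and over all tested genes it was 0.01; the median is the same with genes at 0 in WT set to their lower bounds. All 3 Ko1 libraries lay above all 3 WT libraries for each of the 18 genes, and above the OE libraries too for 17 of them. These genes were chosen by their call in the same libraries, which favours such separation, so it is a description. The share of all tested genes separated in this way was not counted. Ko1 replicate 3 held the highest level of the 3 Ko1 libraries for 16 of the 18. In bulk leaf RNA, more cells of a type and more transcript per cell cannot be told apart.

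**Figure D1:**
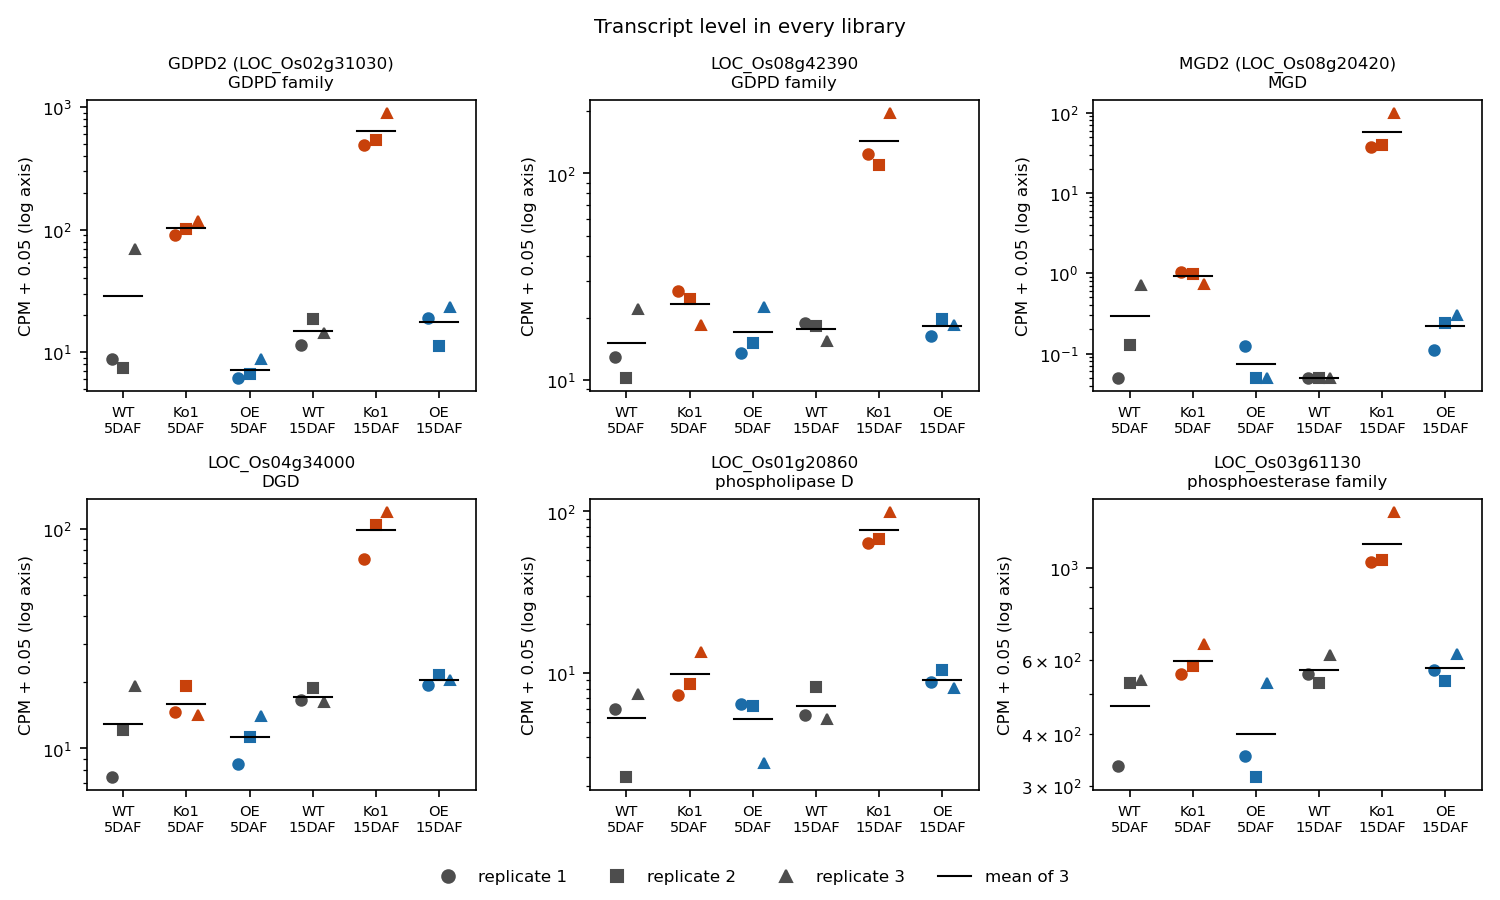
Level of 6 genes in each of the 18 libraries, in CPM plus 0.05 on a log axis, by genotype and stage; points are libraries, marked by replicate number, and lines are means of 3. The 3 Ko1 libraries at 15DAF are the highest of all in every panel, and MGD2 is at 0 counts in all 3 WT libraries at 15DAF.

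Among the GDPD genes, GDPD2 (LOC_Os02g31030, chromosome 2, 18537041 to 18540912 in the table's coordinates) reached the highest level. It read 11.3, 18.6 and 14.3 CPM in WT at 15DAF, 494.9, 535.7 and 887.2 in Ko1, and 18.9, 11.2 and 23.2 in OE. The 3 Ko1 libraries stood far above all 6 others, which overlapped. The log2 fold change of Ko1 against WT was 5.44 ± 0.68 (SE, n = 3 per group; edgeR adjusted p = 0.000118).

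LOC_Os04g32320 was nearly silent outside Ko1, with 0, 0.34 and 0.38 CPM in WT and 0.18, 0.13 and 0.44 in OE at 15DAF. The Ko1 libraries held 14.2, 12.4 and 14.3 CPM, a narrow spread well clear of the rest (log2 fold change 5.73 ± 1.19 against WT; edgeR adjusted p = 0.00681). LOC_Os08g42390 rose from 18.8, 18.3 and 15.4 CPM in WT to 123.9, 110.1 and 195.2 in Ko1, with OE at 16.2, 19.8 and 18.4. WT and OE overlapped and Ko1 lay apart (3.03 ± 0.29; edgeR adjusted p = 8.14e-06). LOC_Os03g40670 and LOC_Os01g55780 were higher too, by 2.61 ± 0.32 and 0.95 ± 0.19 on the log2 scale (edgeR adjusted p = 0.000104 and 0.00564).

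LOC_Os08g39350, the most abundant GDPD gene in WT by FPKM (the table's level per transcript length and library total), had 82.6, 81.6 and 73.0 CPM in WT and 91.6, 82.8 and 101.1 in Ko1. The lowest Ko1 library lay just above the highest WT library, and the log2 fold change of 0.22 ± 0.20 did not pass (edgeR adjusted p = 0.497). LOC_Os08g39350, LOC_Os09g02729 and LOC_Os03g16140 fall outside the rule for naming genes and were chosen after their values were seen. LOC_Os02g37590 stayed under 2 CPM in WT and Ko1 and was not called against WT (-1.61 ± 0.88; edgeR adjusted p = 0.237).

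The phosphoesterase family takes in the non-specific phospholipase C enzymes, of which members known from Arabidopsis release head groups from common phospholipids. LOC_Os03g61130 had the highest FPKM of all 52 genes. At 15DAF it read 556, 530.0 and 617 CPM in WT, 1030.0, 1040.0 and 1354 in Ko1, and 569.6, 535.8 and 622 in OE. The Ko1 libraries lay above the rest without overlap (log2 fold change 1.01 ± 0.21 against WT; edgeR adjusted p = 0.00747). LOC_Os03g63580 had no count in WT at either stage or in OE at 5DAF, and its Ko1 libraries at 15DAF held 3.84, 10.4 and 12.3 CPM. Against a floor of 3 counts over the WT group it was at least 138-fold higher (edgeR adjusted p = 0.00252).

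Of the phospholipase C genes, 2 of 8 were called. LOC_Os07g49330, which held most of this class by FPKM, read 99.3, 107.0 and 105.4 CPM in WT and 204.6, 176.0 and 152.8 in Ko1 at 15DAF. The groups did not overlap and the log2 fold change was 0.78 ± 0.22 (edgeR adjusted p = 0.035). LOC_Os03g30130, a rarer transcript, read 0.64, 2.65 and 1.46 CPM in WT and 6.60, 3.26 and 10.6 in Ko1 (2.10 ± 0.56; edgeR adjusted p = 0.0249). Neither call held in every fit with 1 library left out. That of LOC_Os07g49330 ended without Ko1 15DAF replicate 1 or 2 or any WT 15DAF library, with a highest edgeR adjusted p of 0.109. That of LOC_Os03g30130 ended without Ko1 15DAF replicate 3 or WT 15DAF replicate 1 or 3, with a highest edgeR adjusted p of 0.108. The remaining 6 tested genes of the class did not pass. LOC_Os09g02729 had nearly the same level in WT and Ko1 at 15DAF (18.4 to 22.0 CPM in WT and 20.4 to 20.7 in Ko1). At 5DAF its OE libraries (23.4 to 27.1 CPM) lay above those of Ko1 (18.8 to 20.6).

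The largest rises among phospholipase D genes were in the pair whose description names only the active-site motif. LOC_Os01g20860 read 5.42, 8.09 and 5.10 CPM in WT at 15DAF, 63.4, 67.2 and 98.6 in Ko1, and 8.76, 10.4 and 7.98 in OE. The Ko1 libraries lay far above the rest, and the log2 fold change against WT was 3.62 ± 0.39 (edgeR adjusted p = 2.98e-05). LOC_Os06g44060 read 6.06, 7.21 and 8.30 CPM in WT, 43.0, 35.7 and 58.4 in Ko1, and 6.85, 6.29 and 4.15 in OE (2.67 ± 0.28; edgeR adjusted p = 2.43e-05).

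LOC_Os09g37100 and LOC_Os06g40190 were called with smaller rises of 1.45 ± 0.44 and 0.92 ± 0.26 on the log2 scale (edgeR adjusted p = 0.0431 and 0.031), and neither call held in every fit with 1 library left out. Each ended without any of the WT 15DAF libraries or without Ko1 15DAF replicate 2 or 3, with a highest edgeR adjusted p of 0.183 for LOC_Os09g37100 and 0.10 for LOC_Os06g40190. LOC_Os06g40190 lies beside LOC_Os06g40180 and LOC_Os06g40170 on chromosome 6, with gaps of 3781 and 8143 bases, and reads shared between such neighbours may be split by the counting. Those neighbours were not called at 15DAF.

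The most abundant phospholipase D gene by FPKM did not pass. LOC_Os01g07760 read 351, 253.7 and 408 CPM in WT at 15DAF and 264.0, 230.8 and 268 in Ko1, with overlap (-0.41 ± 0.23; edgeR adjusted p = 0.254). LOC_Os05g29050, described as phospholipase D p1, had 53.6, 50.2 and 37.9 CPM in WT and 41.0, 57.3 and 50.5 in Ko1 (0.07 ± 0.23; edgeR adjusted p = 0.868), and its direction turned when Ko1 15DAF replicate 2 or WT 15DAF replicate 3 was left out (-0.05 in both).

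MGD2 (LOC_Os08g20420, chromosome 8, 12266091 to 12269671) is the galactolipid gene with the sharpest contrast. It had 0 counts in all 3 WT libraries at 15DAF, 0.06, 0.19 and 0.25 CPM in OE, and 37.6, 39.2 and 97.8 CPM in Ko1. Against a floor of 3 counts over the WT group it was at least 939-fold higher (edgeR adjusted p = 4.17e-06). In Arabidopsis, MGD2 belongs to a form of the enzyme that is induced by phosphate shortage, next to a constitutive form that supplies the chloroplast.

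Of the other MGD genes, LOC_Os02g55910 rose from 34.9, 41.7 and 37.6 CPM in WT to 102.3, 85.0 and 160.2 in Ko1, with no overlap (1.60 ± 0.31; edgeR adjusted p = 0.00428). LOC_Os09g25580 read 32.2, 20.9 and 23.5 CPM in WT and 29.2, 30.5 and 29.6 in Ko1, so that the groups overlapped (0.22 ± 0.18; edgeR adjusted p = 0.427).

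Among the DGD genes, LOC_Os04g34000 rose most, from 16.5, 18.7 and 16.2 CPM in WT to 73.1, 104.1 and 118.5 in Ko1, with OE at 19.3, 21.6 and 20.4. Ko1 lay apart from both other genotypes (2.52 ± 0.28 against WT; edgeR adjusted p = 3.38e-05). LOC_Os03g11560 rose by 1.91 ± 0.24 and LOC_Os02g33580, the most abundant DGD gene, by 0.89 ± 0.14 on the log2 scale (edgeR adjusted p = 0.000112 and 0.00085). LOC_Os11g05990 and LOC_Os03g16140 did not pass, at 0.49 ± 0.25 and -0.62 ± 0.24 (edgeR adjusted p = 0.194 and 0.0977). For LOC_Os03g16140, Ko1 replicate 1 read 36.0 CPM and the other Ko1 libraries 81.4 and 75.7, against 93.8, 91.9 and 111.6 in WT.

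**Figure D2:**
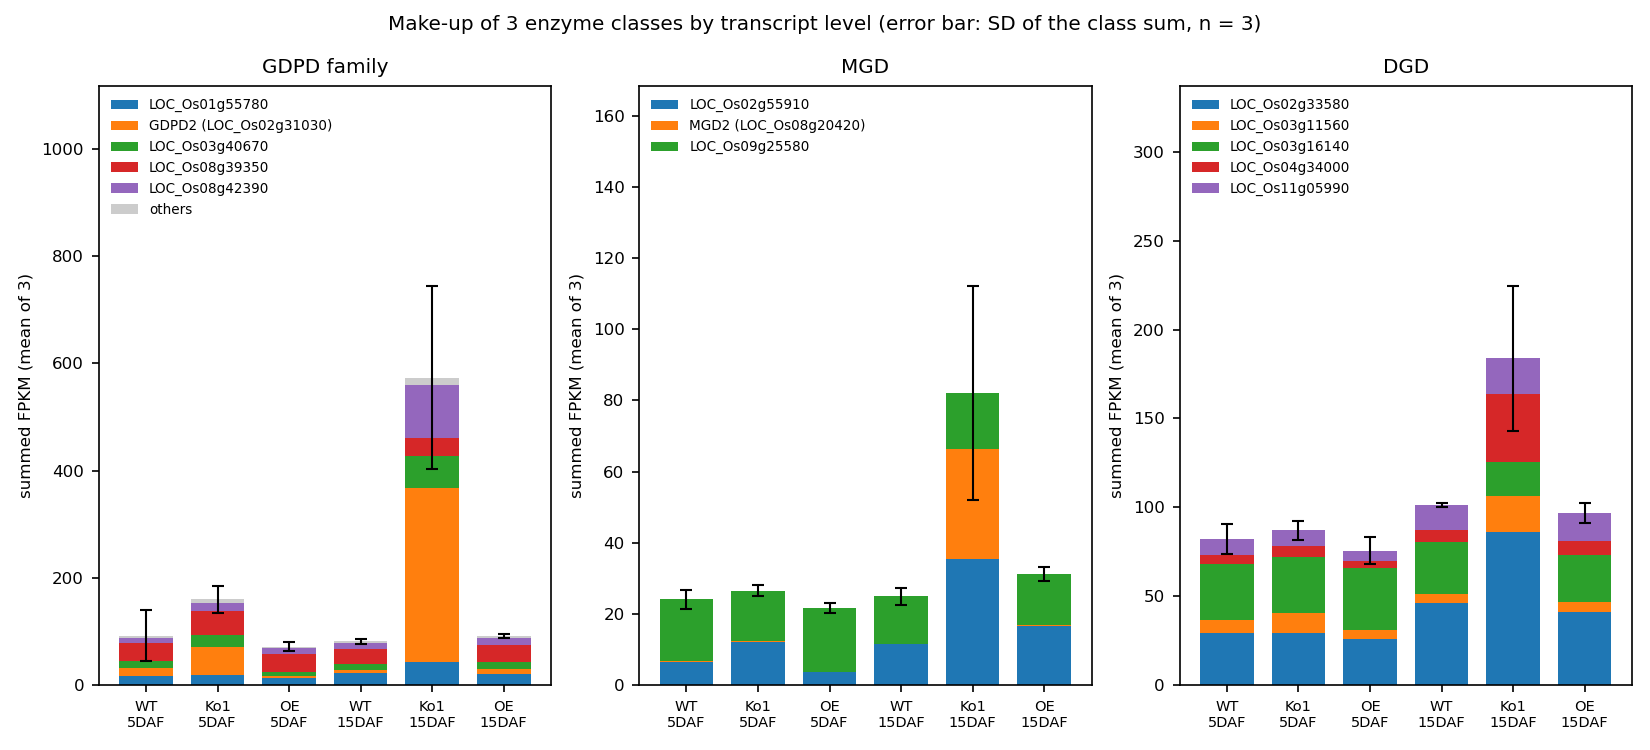
Summed FPKM of the GDPD, MGD and DGD genes in each group (mean of 3 libraries), split by gene; bars start at 0 and error bars are the SD of the sum. The sum is highest in Ko1 at 15DAF in all 3 panels, where GDPD2 and MGD2 take shares they do not have in WT.

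The make-up of each class is given by FPKM, which allows genes to be compared per length. The GDPD genes summed to 81.3 ± 5.5 FPKM in WT at 15DAF (SD, n = 3) and to 574 ± 171 in Ko1. GDPD2 made up 9.07% ± 1.76 of the WT sum and 56.4% ± 2.69 of the Ko1 sum. LOC_Os08g39350, with 34.2% ± 2.25 in WT, made up 5.91% ± 1.14 in Ko1.

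The MGD sum was 24.9 ± 2.4 FPKM in WT and 82.1 ± 30.1 in Ko1. MGD2 went from 0 to 35.8% ± 7.7 of it, while LOC_Os09g25580 went from 53.6% ± 7.6 to 20.9% ± 6.5. LOC_Os02g55910 held the largest MGD share in Ko1, 43.2% ± 3.0, after 46.4% ± 7.6 in WT. The DGD sum was 101.3 ± 1.2 FPKM in WT and 183.8 ± 40.9 in Ko1. There LOC_Os04g34000 went from 6.51% ± 0.64 to 20.9% ± 2.7 and LOC_Os03g16140 from 29.2% ± 2.6 to 10.5% ± 3.7. LOC_Os02g33580 kept the largest share, 45.4% ± 2.8 in WT and 47.3% ± 3.6 in Ko1. The Ko1 and WT libraries did not overlap in any of these 3 sums; the sums and shares are descriptions and carry no test.

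The comparison of Ko1 with OE uses the same Ko1 libraries and is not independent of that with WT. At 15DAF, 18 of 39 genes were called, 17 higher and 1 lower in Ko1, against 13.3% of all tested genes. Side by side, the log2 fold changes against OE were 5.17 ± 0.67 for GDPD2 (LOC_Os02g31030), 2.98 ± 0.28 for LOC_Os08g42390, 3.08 ± 0.38 for LOC_Os01g20860 and 2.27 ± 0.27 for LOC_Os04g34000 (edgeR adjusted p = 0.000145, 8.85e-06, 0.00011 and 8.63e-05).

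The gene lower in Ko1 was LOC_Os02g37590, a GDPD gene of low level. It read 1.55, 2.12 and 6.09 CPM in OE at 15DAF and 0.06, 0.44 and 0.55 in Ko1, with WT at 0.71, 0.95 and 1.57. The OE and Ko1 libraries did not overlap (-3.19 ± 0.89; edgeR adjusted p = 0.0261), and the call was lost without Ko1 15DAF replicate 1, OE 15DAF replicate 2 or OE 15DAF replicate 3, with a highest adjusted p of 0.142.

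**Figure D3:**
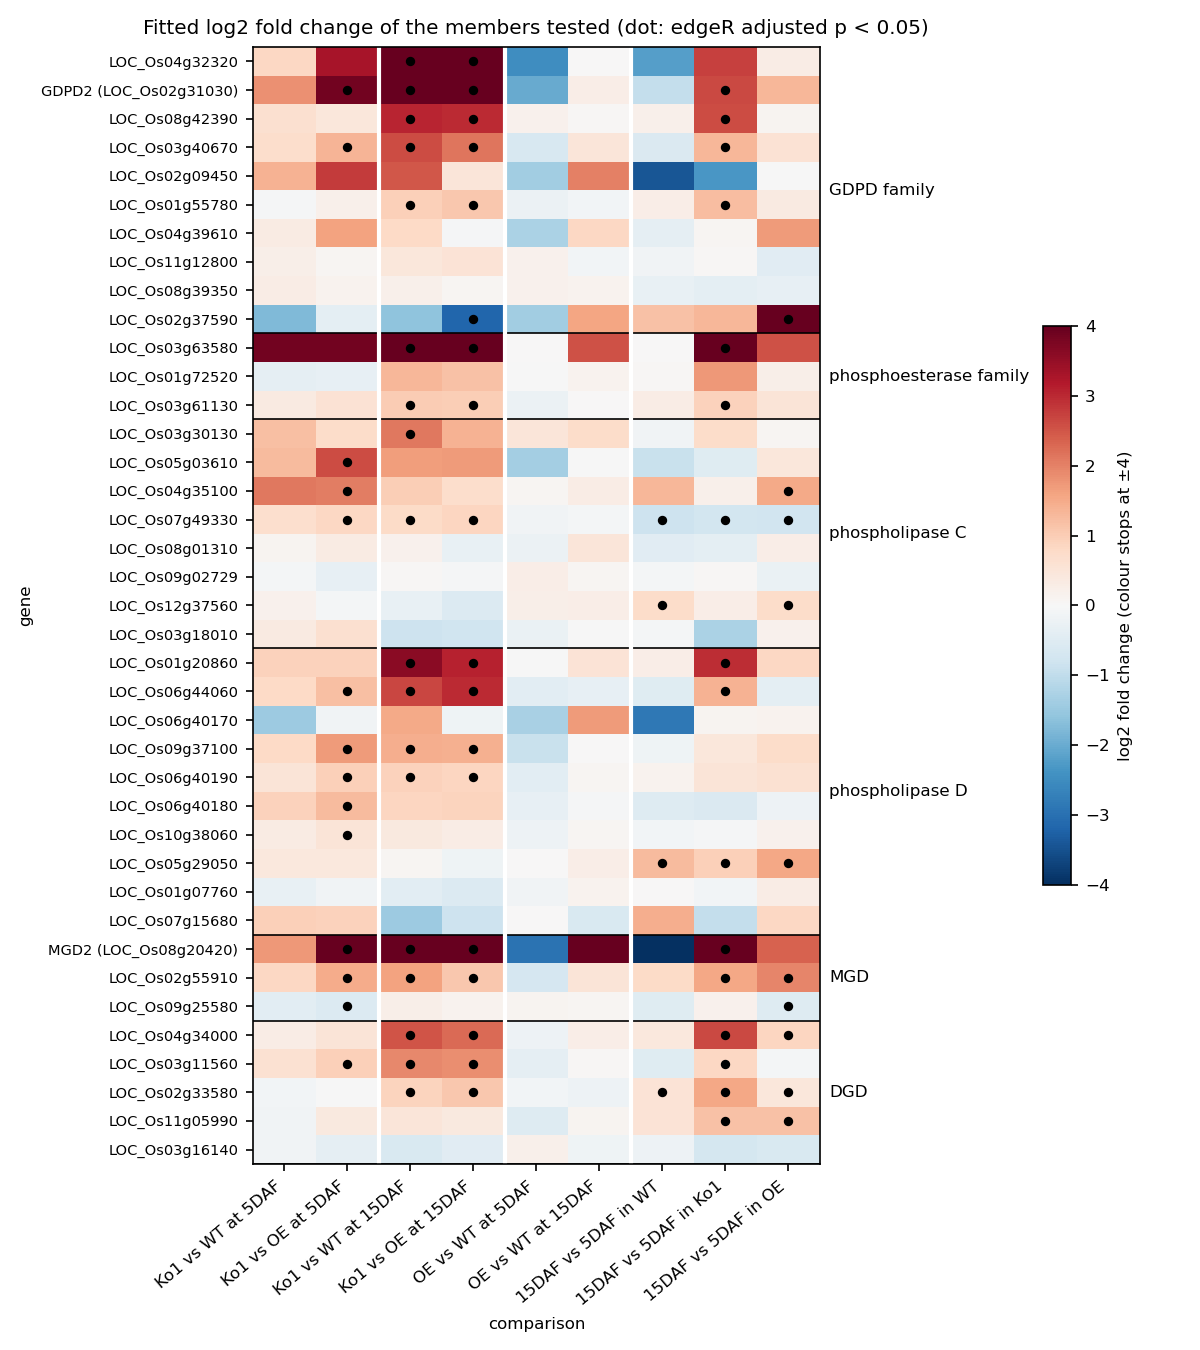
Fitted log2 fold changes of the 39 tested genes, by class, in 9 comparisons; colours stop at 4 in either direction and dots mark edgeR adjusted p under 0.05. Both Ko1 columns at 15DAF carry 18 dots each, and both OE against WT columns carry 0; values of genes at 0 in a group depend on the fit's prior count.

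At 5DAF, edgeR called 0 of 39 genes between Ko1 and WT with all libraries, against 0.0147% of all tested genes. At an unadjusted p under 0.05 there were 13, against 3965 of all 20437 tested genes. DESeq2 called 1, LOC_Os04g35100, against 3.72% of all genes by that tool. With WT 5DAF replicate 3 left out, edgeR called 14, 13 higher and 1 lower, against 13.4% of all tested genes. In edgeR these 14 genes, LOC_Os04g35100 among them, passed with that library left out and not with all libraries. This choice favours genes in which the library lies towards Ko1, so the library's position in them is a description. It lay beyond the other WT libraries on the side of Ko1 for all 14, inside the Ko1 range for 8, and nearer the Ko1 mean for 13.

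GDPD2 (LOC_Os02g31030) is one of them. It read 8.83 and 7.36 CPM in WT replicates 1 and 2, 69.9 in the library labelled WT replicate 3, and 91.0, 100.6 and 117.1 in Ko1, while OE read 6.14, 6.58 and 8.73. WT replicate 3 was close to Ko1 and the other WT libraries to OE. The log2 fold change against WT was 1.84 ± 0.58 with it (edgeR adjusted p = 0.134) and 3.66 ± 0.35 without it (edgeR adjusted p = 1.65e-05).

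The MGD gene LOC_Os02g55910 read 12.3, 16.6 and 37.9 CPM in WT replicates 1 to 3 and 43.1, 33.9 and 40.9 in Ko1 (0.82 ± 0.31 with all libraries, edgeR adjusted p = 0.177; 1.44 ± 0.24 without WT replicate 3, 0.00211). LOC_Os04g32320 was at 0 in WT replicates 1 and 2, at 3.45 CPM in replicate 3, and at 1.80, 2.78 and 1.58 in Ko1. Without WT replicate 3 it was at least 19.2-fold higher in Ko1, against a floor of 3 counts over both remaining libraries (edgeR adjusted p = 0.00358). MGD2 was low at this stage, at 0, 0.08 and 0.66 CPM in WT and 0.98, 0.93 and 0.69 in Ko1. On 1 WT count it was 23.8-fold higher in Ko1 without WT replicate 3, with a 95% counting interval of 4.02 to 963.

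The 1 gene lower in Ko1 in that fit was LOC_Os09g25580, the MGD gene that did not pass at 15DAF. It read 44.9, 35.7 and 26.5 CPM in WT and 27.8, 26.4 and 25.2 in Ko1 (-0.43 ± 0.18 with all libraries, edgeR adjusted p = 0.205; -0.62 ± 0.17 without WT replicate 3, 0.0292).

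**Figure D4:**
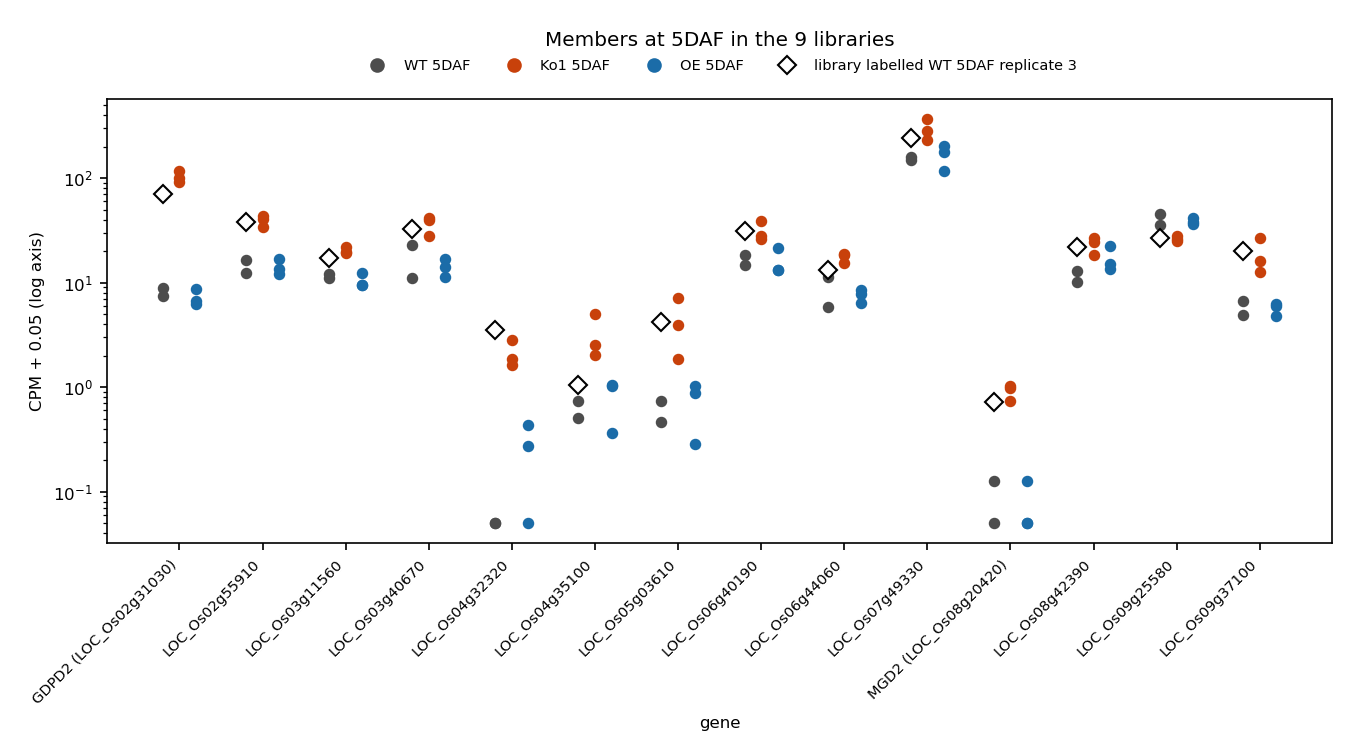
CPM plus 0.05 on a log axis in the 9 libraries at 5DAF, for the 14 genes called between Ko1 and WT when the library labelled WT 5DAF replicate 3 (open diamond) is left out. The diamond lies on the Ko1 side of the other WT libraries for all 14 genes, which the choice of these genes favours.

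Ko1 against OE at 5DAF compares no WT group, though the fit takes its spread from all 18 libraries, WT 5DAF replicate 3 among them. In this contrast 14 of 39 genes were called, 13 higher and 1 lower, against 16.3% of all tested genes. Over all genes the calls were 3340 of 20437, and 4334 of 20900 without WT 5DAF replicate 3. GDPD2 (LOC_Os02g31030) was higher by 3.85 ± 0.65, LOC_Os02g55910 by 1.48 ± 0.31, LOC_Os06g44060 by 1.22 ± 0.28 and LOC_Os03g11560 by 0.96 ± 0.23 on the log2 scale (edgeR adjusted p = 0.00953, 0.0123, 0.0151 and 0.0176). Phospholipase C was represented by LOC_Os05g03610, LOC_Os04g35100 and LOC_Os07g49330, higher by 2.62 ± 0.78, 2.04 ± 0.53 and 0.82 ± 0.22 (edgeR adjusted p = 0.0342, 0.0209 and 0.0248). LOC_Os06g40180, the phospholipase D gene beside LOC_Os06g40190, was higher by 1.27 ± 0.41 (edgeR adjusted p = 0.0458). LOC_Os09g25580 was lower by a log2 fold change of -0.54 ± 0.18 (edgeR adjusted p = 0.0476). The count rests on the libraries in the fit: 1 gene was called without Ko1 5DAF replicate 3, 3 without OE 5DAF replicate 1, 7 without OE 5DAF replicate 2 and 6 without OE 5DAF replicate 3.

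Stage was compared within each genotype. In WT, 4 of 39 were called from 5DAF to 15DAF, 3 higher and 1 lower, against 16.7% of all tested genes. In Ko1, 16 were called, 15 higher and 1 lower, against 20.1%. In OE, 10 were called, 8 higher and 2 lower, against 26.7%. The median log2 change was -0.10 in WT, 0.52 in Ko1 and 0.37 in OE. WT gave 2 calls without WT 15DAF replicate 1 and 2 without WT 15DAF replicate 2. With WT 5DAF replicate 3 left out it gave 6, 5 higher and 1 lower, against 14.9% of all tested genes, and its median turned to 0.22. OE gave 4 to 6 calls when any of its libraries but 5DAF replicate 3 was left out.

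Several changes with stage were called in all genotypes, though only 1 of the 4 calls in WT held in every fit with 1 library left out. LOC_Os05g29050, the phospholipase D p1 gene, read 18.8, 16.7 and 22.7 CPM in WT at 5DAF and 53.6, 50.2 and 37.9 at 15DAF, with no overlap. It was higher at 15DAF by 1.28 ± 0.23 in WT, 0.94 ± 0.23 in Ko1 and 1.53 ± 0.23 in OE (edgeR adjusted p = 0.0012, 0.00753 and 0.00012). LOC_Os02g33580 was higher by 0.55 ± 0.14, 1.55 ± 0.14 and 0.46 ± 0.14 (edgeR adjusted p = 0.0114, 1.12e-06 and 0.0187). The phospholipase C gene LOC_Os07g49330 was lower at 15DAF, with log2 changes of -0.82 ± 0.22, -0.73 ± 0.22 and -0.76 ± 0.22 (edgeR adjusted p = 0.0179, 0.0285 and 0.0176). Its call in WT ended without WT 5DAF replicate 3 (-0.60 ± 0.22; edgeR adjusted p = 0.0740).

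Other genes passed in only some genotypes, which is not a test of a difference between them. LOC_Os12g37560, a phospholipase C gene, was called higher in WT and OE (0.72 ± 0.23 and 0.74 ± 0.23; edgeR adjusted p = 0.0426 and 0.0242) and had 0.27 ± 0.23 in Ko1; its call in WT ended without WT 5DAF replicate 3 (0.68 ± 0.27; edgeR adjusted p = 0.105). LOC_Os11g05990, a DGD gene, was called in Ko1 and OE (1.17 ± 0.25 and 1.18 ± 0.25; edgeR adjusted p = 0.00281 and 0.002) and had 0.54 ± 0.25 in WT. LOC_Os02g37590 was called in OE, from 0.08, 0.37 and 0.08 CPM to 1.55, 2.12 and 6.09 (4.14 ± 0.97; edgeR adjusted p = 0.00413).

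The change of the Ko1 effect between the stages was tested itself, as the difference of both contrasts with WT. It was larger at 15DAF for 6 of 39 genes and smaller for 0, against 0.553% of all tested genes. They were the DGD genes LOC_Os02g33580 and LOC_Os04g34000, the GDPD gene LOC_Os08g42390, MGD2, and the phospholipase D genes LOC_Os01g20860 and LOC_Os06g44060. LOC_Os08g42390 differed from WT by 0.63 at 5DAF and 3.03 at 15DAF on the log2 scale, a change of 2.40 ± 0.39 (edgeR adjusted p = 0.00907). For LOC_Os04g34000 the effects were 0.31 and 2.52 (change 2.22 ± 0.38; edgeR adjusted p = 0.0127), and for LOC_Os02g33580 they were -0.12 and 0.89 (change 1.0 ± 0.195; edgeR adjusted p = 0.0269).

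GDPD2 (LOC_Os02g31030) did not pass, with a change of 3.60 ± 0.82 (edgeR adjusted p = 0.0597).

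Leaving out WT 5DAF replicate 3 kept 3 of the 6 calls, against 0.402% of all tested genes. LOC_Os08g42390 kept a change of 2.03, LOC_Os04g34000 of 1.82 and LOC_Os02g33580 of 1.03 (edgeR adjusted p = 0.0176, 0.0227 and 0.0452), while the calls of LOC_Os01g20860 and LOC_Os06g44060 ended with changes of 2.40 and 1.64 (edgeR adjusted p = 0.0626 and 0.0687). The call of MGD2 ended too, at a fitted change of 8.48 that depends on the prior count (edgeR adjusted p = 0.391). GDPD2 (LOC_Os02g31030) had a change of 1.79 ± 0.40 without that library and did not pass there either (edgeR adjusted p = 0.0662). The count was also 3 without Ko1 15DAF replicate 3, Ko1 5DAF replicate 2, WT 15DAF replicate 1 or WT 15DAF replicate 3. Only 2 of the 6 genes were called in every fit with 1 library left out.

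**Figure D5:**
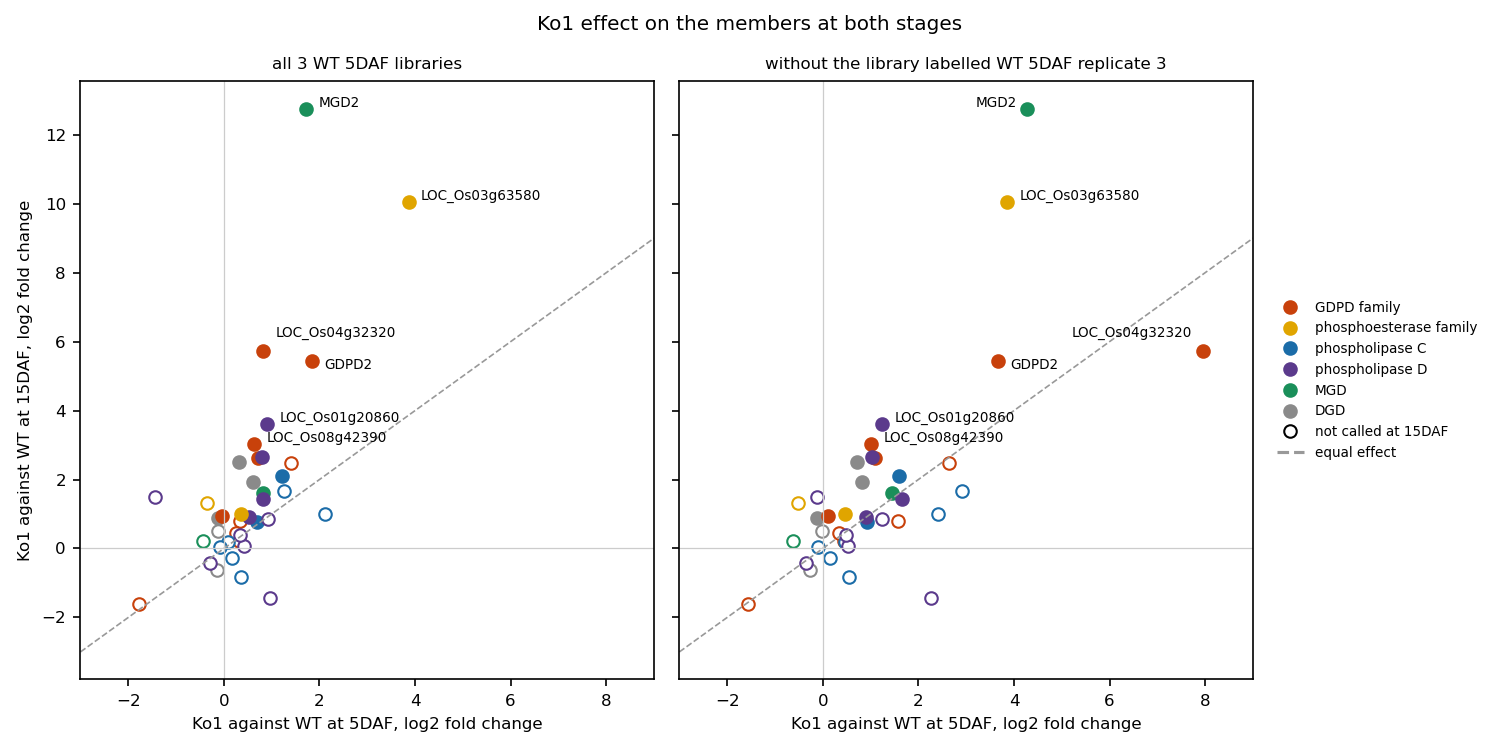
Fitted log2 fold change of Ko1 against WT at 15DAF (vertical) and 5DAF (horizontal) for the tested genes, with all WT 5DAF libraries (left) and with replicate 3 of that group left out (right); the dashed line marks equal effects and filled points were called at 15DAF. Most filled points lie above the line; GDPD2 moves from 1.84 to 3.66 on the horizontal axis, LOC_Os04g32320 falls below the line on the right, and values of genes at 0 in WT depend on the fit's prior count.

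OE and WT differed in none of the 39 genes by edgeR at either stage. The counts were 0 at 5DAF, against 0.0391% of all tested genes, and 0 at 15DAF, against 0.0245%. At an unadjusted p under 0.05 there were 3 and 1, against 1470 and 646 of all 20437 tested genes. DESeq2 called 0 and 0, against 0.460% and 0.122% of all genes by that tool. GDPD2 (LOC_Os02g31030) read 11.3 to 18.6 CPM in WT and 11.2 to 23.2 in OE at 15DAF, where the groups overlapped (0.27 ± 0.58; edgeR adjusted p = 1). Without WT 5DAF replicate 3, edgeR called 0 at 5DAF as well, against 0.182% of all tested genes. There 1 had an unadjusted p under 0.05, against 828 of all 20900 tested genes. The change of the OE effect between stages was called for 0 genes, against 0.00% of all tested genes with or without that library. For this change 6 had an unadjusted p under 0.05, against 1226 of all 20437 genes with all libraries. DESeq2 called 0, against 0.0636%.

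The sulfolipid loci are not matched by the description words. SQD1 makes UDP-sulfoquinovose and SQD2 transfers its sugar to diacylglycerol, roles known from Arabidopsis, and the table describes LOC_Os05g32140 as an NAD dependent epimerase/dehydratase and LOC_Os07g01030 as a glycosyl transferase. LOC_Os05g32140 (SQD1) read 162.5, 137.4 and 164.6 CPM in WT at 15DAF, 379.6, 540.1 and 529.6 in Ko1, and 158.9, 128.2 and 109.0 in OE. LOC_Os07g01030 (SQD2) read 99.4, 91.9 and 92.4 CPM in WT, 322.0, 322.0 and 350.3 in Ko1, and 92.1, 76.5 and 79.3 in OE. Ko1 lay above both other genotypes for both loci, by 1.64 ± 0.26 and 1.81 ± 0.16 on the log2 scale against WT (edgeR adjusted p = 0.000902 and 5.12e-06).

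Over time both fell in WT and OE and rose in Ko1. SQD1 changed by -0.93 ± 0.25 in WT, -1.34 ± 0.26 in OE and 1.35 ± 0.26 in Ko1 (edgeR adjusted p = 0.0179, 0.000867 and 0.00109). SQD2 changed by -1.18 ± 0.16, -1.64 ± 0.16 and 0.72 ± 0.16 (edgeR adjusted p = 0.0001, 2.06e-06 and 0.00354). Without WT 5DAF replicate 3, which read 193.2 CPM for SQD1 against 348.2 and 344.4 in the other WT libraries, the changes in WT were -1.18 ± 0.24 for SQD1 and -1.29 ± 0.17 for SQD2 (edgeR adjusted p = 0.0033 and 0.000148). The change of the Ko1 effect was 2.29 ± 0.36 for SQD1 (LOC_Os05g32140) and 1.90 ± 0.22 for SQD2 (LOC_Os07g01030), with edgeR adjusted p of 0.008 and 0.000546, and both were called without WT 5DAF replicate 3 too (edgeR adjusted p = 0.00175 and 0.00111).

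A wider list of 71 glycerolipid genes outside the 52, of which 52 were tested, gave 14 calls between Ko1 and WT at 15DAF, 11 higher and 3 lower, against 6.53% of all tested genes called higher and 4.43% called lower, with a median log2 fold change of 0.15. Calls fell on 3 of 9 PAP2 and phosphatidic acid phosphatase genes, all higher, 3 of 14 diacylglycerol kinase genes, 1 higher and 2 lower, and 3 of 9 phosphatidate cytidylyl-transferase genes, all higher. Of 4 tested UDP-glucose pyrophosphorylase genes, whose product feeds sugar nucleotides to galactolipid synthesis, 2 were higher. Of 2 lipin genes, which make diacylglycerol from phosphatidic acid, LOC_Os11g40080 was higher, from 61.1, 74.8 and 66.1 CPM in WT to 164.7, 230.8 and 264.6 in Ko1 (1.71 ± 0.18; edgeR adjusted p = 2.25e-05). Phosphatidylserine enzymes are in the wider list too. The synthase gene LOC_Os05g48060 averaged 9.11 ± 0.83 CPM in WT and 97.2 ± 43.2 in Ko1 at 15DAF (SD, n = 3). The decarboxylase gene LOC_Os01g72940 went the other way, from 60.7 ± 7.6 to 38.8 ± 6.9 CPM. The genes named from the wider list were chosen after their values were seen.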

How the data were processed

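Per the file headers, the 1 deposited table gives each library a raw count and an FPKM value for every gene. The authors' FPKM behave as counts divided by the library total and a fixed length per gene: over 14683 genes the implied length differed between libraries by a ratio of at most 1.000039. Bowtie 0.12.2 and mm8, a mouse build, are named per the submitters' processing notes, whereas the loci are rice. For the rice build, counting tool and strand use the entry is: not given in the sources used here, so overlapping or antisense transcripts cannot be told apart. LOC_Os03g18000 and LOC_Os03g18010 share 1 RAP identifier.

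Counts of 20437 genes that passed filterByExpr, holding at least 99.8% of each library's counts, were fitted with edgeR 4.0.16 (TMM scaling, 6 group means over 18 libraries, R 4.3.3), and 11 contrasts were tested on both sides by the quasi-likelihood test with Benjamini-Hochberg adjustment over all genes at 0.05. CPM use TMM-scaled library sizes, and SE is the absolute log2 fold change divided by the square root of F. A fold against a group at 0 used a floor of 3 counts over the group. Floors and the 95% counting intervals cover counting error only. The script was tested on simulated data. As alternatives, each library was left out in turn, the filter was dropped, a replicate block was added, only the groups of a contrast were fitted, the threshold was set to 0.01, and RLE scaling or DESeq2 1.42.0 was used.

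The 52 genes, the wider lists and the library to leave out were chosen with earlier results of these data known. Named genes are GDPD2, MGD2 and those of each class with the largest called changes (up to 5 between genotypes, up to 3 between stages) and its highest FPKM, 26 in all, plus those said to be chosen later. LOC_Os01g55780 was named as another called gene the rule allows. 0 of the 52 genes matched the reference gene table, so no sequence is shown. Replicate numbers were not used to pair the libraries in the main fit.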

Additional observations from a re-analysis of the deposited data

Results flagged for a closer look

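The Ko1 effect against WT differed between 5DAF and 15DAF, by edgeR's test of the difference itself, for 6 phospholipid and galactolipid genes and both sulfolipid loci. On the log2 scale the change was 1.0 for LOC_Os02g33580, 2.22 for LOC_Os04g34000, 2.4 for LOC_Os08g42390, 2.71 for LOC_Os01g20860, 1.87 for LOC_Os06g44060, 2.29 for SQD1 (LOC_Os05g32140) and 1.9 for SQD2 (LOC_Os07g01030). For MGD2 (LOC_Os08g20420) the fitted change was 11.03, a value that depends on the fit's prior count because WT was at 0 counts at 15DAF. Without WT 5DAF replicate 3 the calls of LOC_Os01g20860, LOC_Os06g44060 and MGD2 ended, with changes of 2.4, 1.64 and a fitted 8.48 (edgeR adjusted p = 0.0626, 0.0687 and 0.391). The part of that library's position in these changes was not tested beyond leaving it out. Of the 6 phospholipid and galactolipid genes, 2 were called in every fit with 1 library left out.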

How the results depend on the processing

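Counts of genes called moved by more than 1.5 times in these cases. With adjusted p under 0.01 the calls between stages were 4 in OE and 1 in WT, those between Ko1 and OE at 5DAF were 1, and those for the change of the Ko1 effect were 2. Over all 20437 tested genes the counts at that threshold were 3265, 1681, 90 and 26. With DESeq2 the calls were 7 between stages in WT, 1 between Ko1 and WT at 5DAF and 10 for the change of the Ko1 effect. Over all genes DESeq2 called 4287, 760 and 307 in these contrasts. A fit of only the contrast's groups gave 1 call for the change of the Ko1 effect. That fit, the fits with 1 library left out and the replicate block are given here without counts over all genes. Leaving out 1 library at a time gave 14 to 18 calls between stages in Ko1, 4 to 12 in OE and 2 to 6 in WT. It gave 13 to 18 for Ko1 against OE at 15DAF, 1 to 15 at 5DAF, 14 to 18 for Ko1 against WT at 15DAF, 0 to 14 at 5DAF, 3 to 9 for the change of the Ko1 effect, and 0 to 0 for the 3 OE against WT contrasts. Of the genes called, 14 of 18 were called in every such fit for Ko1 against WT at 15DAF, 13 of 18 for Ko1 against OE at 15DAF and 1 of 14 at 5DAF. For the change of the Ko1 effect it was 2 of 6. Between stages it was 14 of 16 in Ko1, 4 of 10 in OE and 1 of 4 in WT. LOC_Os05g29050 in Ko1 against WT at 15DAF turned from 0.07 to -0.05 without Ko1 15DAF replicate 2 and to -0.05 without WT 15DAF replicate 3, within a range of -0.05 to 0.21 over the libraries left out. Low totals limit LOC_Os02g37590, LOC_Os04g32320 and the genes under the filter.

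Same-numbered libraries correlated between -0.205 and 0.251 over 45 pairs, 5 of them over 0.1. The replicate 1 pairs at 5DAF were all over 0.1 (0.251 for WT and Ko1, 0.172 for WT and OE, 0.145 for Ko1 and OE). Differently numbered libraries were not correlated for reference, so these values do not decide whether replicate numbers share an effect. With the replicate block the calls were 18 for Ko1 against WT at 15DAF, 17 for Ko1 against OE at 15DAF, 15 for Ko1 against OE at 5DAF, 0 for Ko1 against WT at 5DAF, 16, 11 and 5 between stages in Ko1, OE and WT, and 6 for the change of the Ko1 effect. Over 125 gene and contrast pairs it left 122 calls on their side of the threshold, ended 2 and added 1.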
